A study of Mus musculus with 24 samples.

Results

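The Eph receptors, ephrins, Slits, Robos, netrins and netrin receptors are the guidance genes by which cells and growing axons read their neighbours and their surroundings. 40 of the 56748 genes in the count table belong to these families and were chosen by name, as 9 EphA receptors, 5 EphB receptors, 5 ephrin-A and 3 ephrin-B ligands, 3 Slits, 4 Robos, 5 netrins and 6 netrin receptors. All 40 were found by their symbol. Their expression was described in the dental mesenchyme, the neural crest derived tissue that forms the pulp, dentin and supporting tissue of the tooth, along the lingual (tongue) to buccal (cheek) axis.

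First molar germs were taken from the lower jaw of embryos of ICR mice, an outbred strain without a genetic change, and the RNA of the mesenchyme, freed from the epithelium with dispase II, was sequenced in bulk. The 8 groups had 3 libraries each. Mesenchyme was left undivided at E13, the cap stage (Cap-W), or at E15, the bell stage (Bell-W), or it was cut with a needle into a lingual piece, named Cap-L or Bell-L, and a buccal piece, named Cap-B or Bell-B. E13 pieces kept in vitro for 2 days were named Cap-L+2D and Cap-B+2D. For the undivided groups the design text speaks of the tooth germ and the protocol of isolated mesenchyme. No treatment other than culture was given, and no source states which embryos were pooled for a library, so that p-values measure the spread between libraries, which may be technical. Cultured parts were also 2 days older than the cap stage parts, so that age and culture cannot be told apart in their comparison.

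Eph receptors are receptor tyrosine kinases, and their ephrin ligands are themselves held in the cell membrane. Contact between cells that carry them is known to start signals on both sides, often repulsive, and to keep neighbouring cell populations apart. Slits are secreted and bind Robo receptors, mostly as a repellent. Netrin-1 is a secreted laminin-like protein that attracts through Dcc and Neo1 and repels through the Unc5 receptors, while the netrin-G proteins stay bound to the membrane and use other partners. In the tooth these families are known for steering nerve fibres and vessels, and many members are also active in mesenchyme.

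Libraries held between 20581720 and 39266497 counted read pairs, so that 3 counts, used as the floor of detection, stood for 0.0764 to 0.146 CPM (counts scaled to a library total of 1000000). Values below are CPM after normalisation by edgeR's TMM method, in the order of replicates 1, 2 and 3. Floors cover counting error only. All 10 markers of dental mesenchyme were above the floor in every group. Markers of other tissues were present as well and moved with the groups, as the plot of summed marker levels shows. The 9 skeletal muscle markers summed to 15.6 to 16.5 CPM in Cap-L and 207 to 226 in Cap-B, to 113 to 121 in Bell-L and 924 to 950 in Bell-B, and to 304 to 328 in Cap-L+2D and 3856 to 4025 in Cap-B+2D, and 8 of the 8 tested were called higher in the buccal part each time. Tnnc2 stayed at or under the floor in Cap-W, both cap stage parts, Bell-W and Bell-L, and Myf5 in Cap-W and Cap-L. The 8 endothelial markers summed to 506 to 515 CPM in Cap-L and 446 to 461 in Cap-B, but to 450 to 456 in Cap-L+2D and 185 to 187 in Cap-B+2D. The 9 epithelial markers fell between the same cultured parts from 323 to 355 CPM in the lingual libraries to 89.5 to 91.4 in the buccal libraries. The 6 bone markers summed to a mean of 980 CPM in Cap-L, 463 in Cap-B, 2195 in Cap-L+2D and 492 in Cap-B+2D. The 7 Schwann cell and glia markers summed to 30.2, 65.3, 25.6 and 100 CPM in the same order, the 7 neuronal markers to 24.1, 34.5, 22 and 75.7 CPM and the 6 macrophage markers to 58.1, 64.1, 228 and 155 CPM. The 6 erythroid markers summed to group means of 1683 to 2685 CPM in fresh tissue and of 19.2 to 25.2 CPM in the cultured parts. In bulk RNA, fewer cells of a type and less RNA per cell cannot be told apart, and the part of these tissues in the results below was not tested. The undivided libraries differed more among themselves than the parts did. Replicate 1 of Cap-W had 5.39% of its counts on the ribosomal gene Rn18s-rs5, and replicate 3 of Bell-W had 1837 CPM of epithelial and 146 CPM of neuronal markers against 461 to 526 and 20.4 to 23.9 CPM in the other Bell-W libraries.

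**Figure D1:**
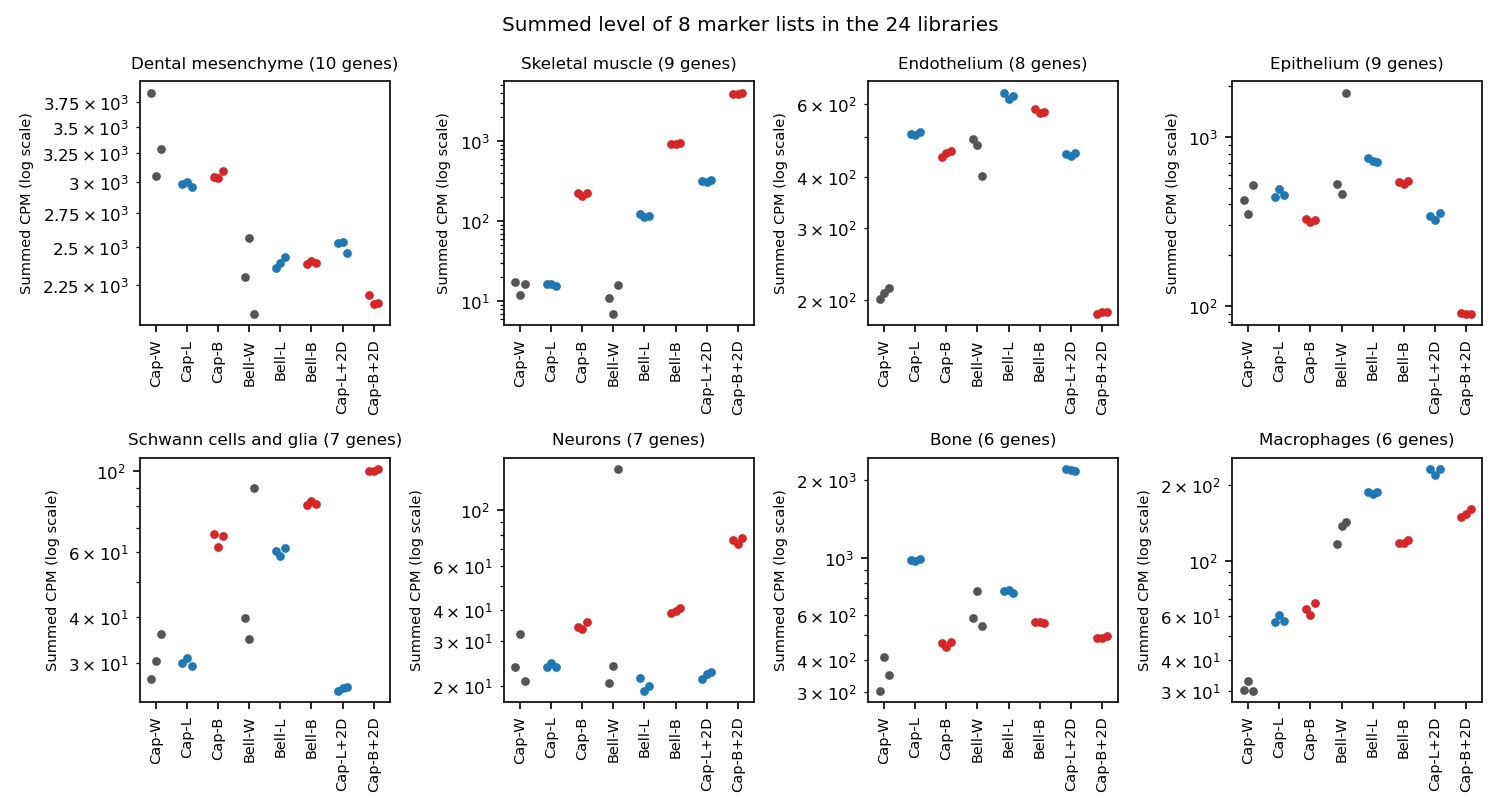
Summed normalised CPM (log scale) of 8 lists of marker genes in the 24 libraries, 1 point per library, with grey for undivided, blue for lingual and red for buccal mesenchyme. Skeletal muscle markers stood higher in the buccal than in the lingual libraries at both stages and after culture, and endothelial and epithelial markers were low in the Cap-B+2D libraries.

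Most guidance genes were well expressed. Genes were compared per kilobase of exon, over the bases of all annotated exons of a gene. On this scale the highest level over the 8 groups belonged to Ephb4 (55.3 CPM per kb, mean of the group means). It was followed by the netrin receptor Neo1 (37.1), Slit3 (30.9), Ephb3 (28), Efnb3 (27.1) and Efnb1 (27). The last 3 lay closer together than their group means did, which ran from 17.7 to 55.7 for Ephb3. At the other end stood Epha10 (0.0418 CPM per kb), Epha8 (0.273), Slit1 (0.274), Unc5a (0.336), Epha6 (0.392) and Epha5 (0.403). Within families a single gene often led: Ephb4 made up 44.0% to 55.3% of the summed EphB level per kb, Slit3 67.7% to 82.5% of the Slit level, and Neo1 55.0% to 74.4% of the netrin receptor level. The annotated exon length was 25433 bases for Slit2 and 6067 for Slit3. In Cap-B Slit2 had a mean of 325 CPM and Slit3 of 164, so the lead of Slit3 there came from the length used. How well such lengths match the transcripts present was not tested. Among netrins the leading gene changed, with Ntn3 at 74.6% of the family level in Cap-L and Ntn1 at 69.9% in Cap-B+2D.

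**Figure D2:**
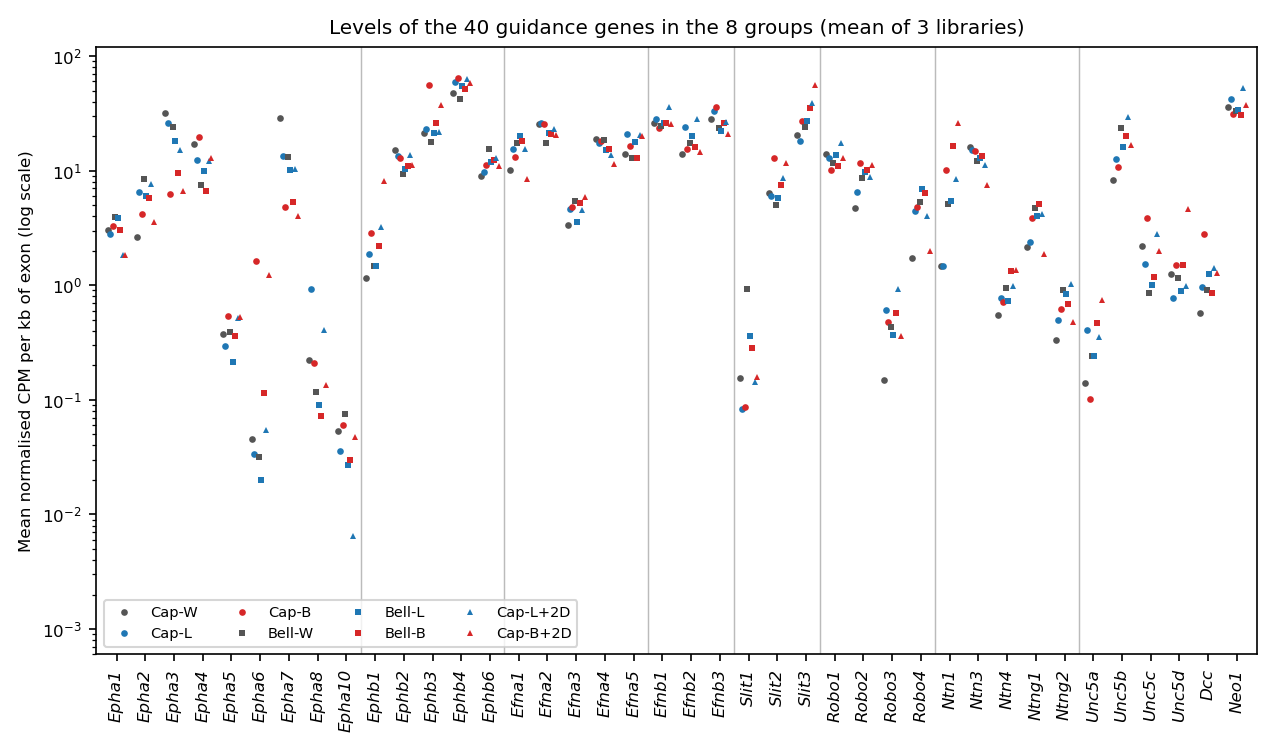
Mean normalised CPM per kb of exon (log scale, n = 3 libraries) of the 40 genes in the 8 groups, with grey for undivided, blue for lingual and red for buccal mesenchyme. Circles are cap stage, squares bell stage and triangles cultured parts. Ephb4 stood near the top in every group, while Epha6 ran from 0.0201 CPM per kb in Bell-L to 1.62 in Cap-B.

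The question of the side comparisons was how lingual and buccal dental mesenchyme differ before and after they are separated. A gene was called where edgeR's quasi-likelihood F-test gave an adjusted p below 0.05 (Benjamini-Hochberg, over all genes tested) together with a log2 fold change above 0.5 in size. In Cap-B over Cap-L, 13 of the 39 members tested were called higher in the buccal part, against 10.4% of all genes tested, and 6 lower, against 7.11%. In Bell-B over Bell-L, 9 of 39 were called higher (5.98% of all genes) and 4 lower (6.89%). In Cap-B+2D over Cap-L+2D, 7 of 39 were called higher (12.5% of all genes) and 14 lower (12.6%). The members' share called in either direction was 48.7%, 33.3% and 53.8%, and their median absolute log2 fold change was 0.39, 0.33 and 0.51, beside 0.19, 0.14 and 0.24 over all genes tested. These 3 comparisons share no library. Epha6, Ephb1, Ntn1 and Unc5d were called buccal in all 3, and Epha3 and Epha7 lingual in all 3. The share of all genes called on the same side in all 3 was not computed, so these counts do not set the members apart. Unc5a was called in all 3 with a turn of direction, lingual at the cap stage and buccal in the other comparisons, but its bell stage call was lost with all libraries in 1 fit (adjusted p = 0.132).

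With stage, 9 of 39 members tested were called higher in Bell-W over Cap-W (10.3% of all genes) and 4 lower (4.24%). In Bell-L over Cap-L 7 of 38 were called higher (14.2% of all genes) and 5 lower (5.79%), and in Bell-B over Cap-B 6 of 40 were called higher (12% of all genes) and 9 lower (6.72%). After culture, 12 of 38 were called higher in Cap-L+2D over Cap-L (19.6% of all genes) and 3 lower (15.9%), while 8 of 40 were called higher in Cap-B+2D over Cap-B (17.9% of all genes) and 12 lower (16.6%). The members' share called was 33.3% in the undivided mesenchyme, 31.6% and 37.5% with stage in the lingual and buccal part, and 39.5% and 50% in culture, and the lingual culture share was close to that of all genes. Stage and culture comparisons of a side use the same cap stage libraries. Of the interactions, which test whether the buccal over lingual difference itself changed, 7 of 40 members were called toward the buccal side from cap to bell (5.27% of all genes) and 10 toward the lingual side (8.87%). With culture 6 of 40 were called toward the buccal side (7.16% of all genes) and 17 toward the lingual side (10.2%). Over the 8 pairwise comparisons, several of which share libraries, 36 of the 40 genes were called at least once. The share of all genes called at least once was not computed, so this count does not set the members apart. Ephb4, Efna2, Efna5 and Robo1 were not called in any of them, and their largest absolute log2 fold changes were 0.33, 0.56, 0.46 and 0.45. Efna2 in Bell-W over Cap-W (-0.56, adjusted p = 0.0559) became a call by DESeq2 (-0.55, adjusted p = 0.0317), without the count filter (-0.53, adjusted p = 0.0392), with all libraries in 1 fit (-0.54, adjusted p = 8.81e-05) and without Bell-W replicate 3 (-0.74, adjusted p = 0.0105). By the adjusted p alone, without the fold limit, 29 of 39 members passed in Cap-B over Cap-L against 42.4% of all genes tested, 27 of 39 in Bell-B over Bell-L (37.3%), 33 of 39 in Cap-B+2D over Cap-L+2D (54.7%) and 14 of 39 in Bell-W over Cap-W (16.3%). By the same rule 32 of 38 passed in Bell-L over Cap-L (50.1% of all genes), 33 of 40 in Bell-B over Cap-B (48%), 30 of 38 in Cap-L+2D over Cap-L (66%) and 35 of 40 in Cap-B+2D over Cap-B (67.2%). Of the interactions 26 of 40 passed with stage (32.7% of all genes) and 31 of 40 with culture (35.5%).

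**Figure D3:**
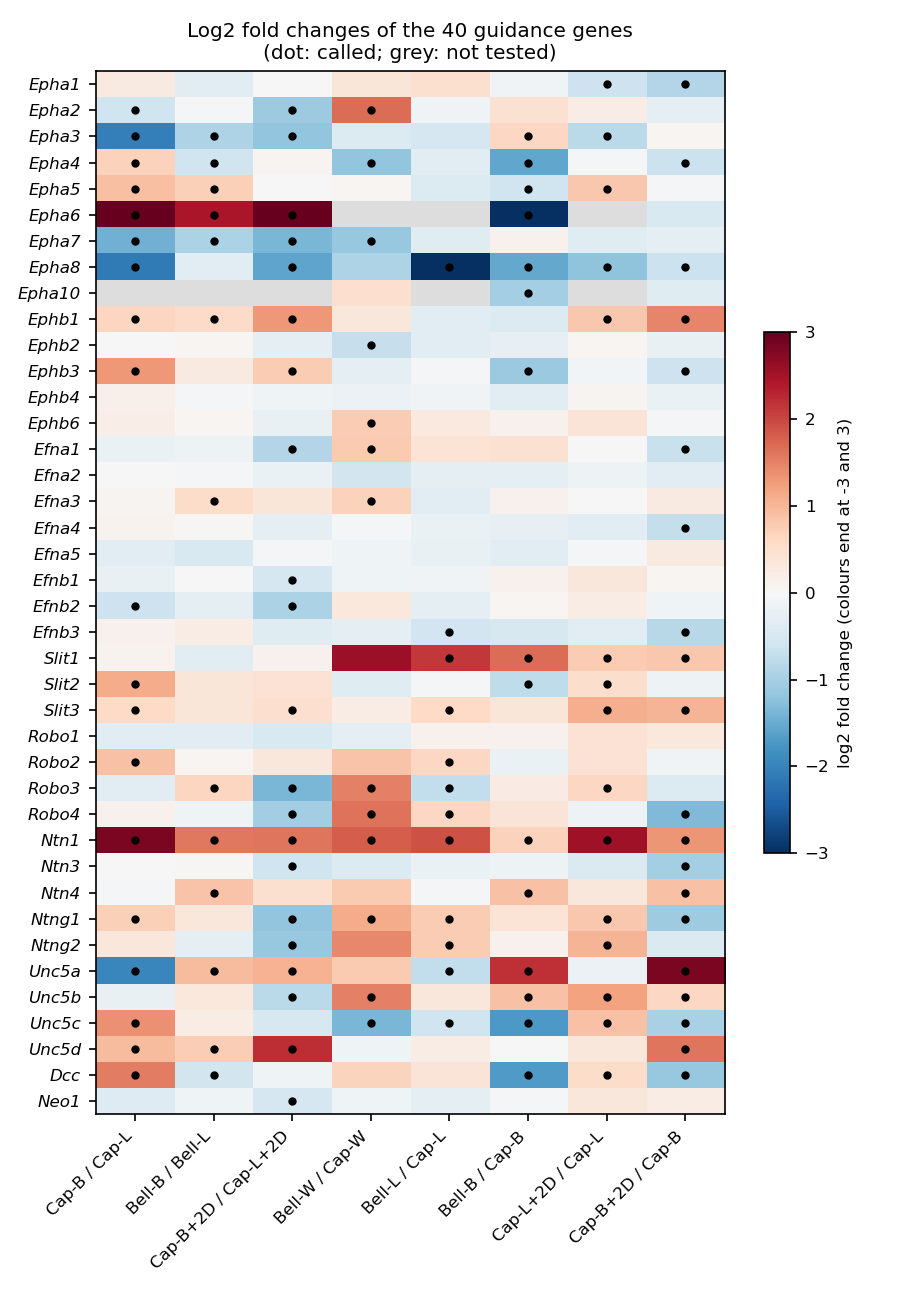
Log2 fold changes of the 40 genes (rows) in the 8 pairwise comparisons (columns, the group named first over the other), with red for higher and blue for lower values. Black dots mark the genes called and grey cells those not tested. Ntn1 is red with a dot in all 8 columns, and Epha3 and Epha7 are blue with dots in the 3 side comparisons.

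The EphA receptors, which bind mainly the ephrin-A ligands, divided into lingual and buccal genes. Epha3 and Epha7 carried the lingual pattern, Epha6 the buccal pattern, and Epha4 changed sides between the stages. In all, 3 of 8 EphA genes tested were called buccal and 4 lingual at E13, against 10.4% and 7.11% of all genes. At E15 2 were called buccal and 3 lingual (5.98% and 6.89% of all genes). After culture 1 was called buccal and 4 lingual (12.5% and 12.6% of all genes).

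Epha3 (chromosome 16, 63363897 to 63684538, minus strand, GRCm39) was at 236, 208 and 235 CPM in Cap-L and at 54.9, 53.6 and 53.1 CPM in Cap-B. No lingual library came down to the buccal range, a 4.14-fold difference (log2 fold change -2.05, SE 0.0572, adjusted p = 4.51e-16). Epha3 stood at 155, 161 and 160 CPM in Bell-L and 81.9, 84.6 and 82.3 CPM in Bell-B (log2 fold change -0.93, SE 0.0337, adjusted p = 8.75e-33). After culture it was at 129, 128 and 133 CPM in Cap-L+2D and 60.5, 59.0 and 53.7 CPM in Cap-B+2D (log2 fold change -1.18, SE 0.0433, adjusted p = 1.24e-18). The groups did not overlap in any of the 3 comparisons, but the difference was smaller at the bell stage (interaction 1.11, SE 0.0656) and after culture (0.86, SE 0.0701). With stage Epha3 rose in the buccal part by 0.62 on the log2 scale (SE 0.0417), while in the lingual part its log2 fold change of -0.50 was not called. It became a call, at -0.51 to -0.56, without Cap-L replicate 2 or Bell-L replicate 2 or 3. The same happened by DESeq2 (-0.50), without the count filter (-0.52) and with all libraries in 1 fit (-0.51, adjusted p = 0.0484). In culture it fell by 0.81 (SE 0.0483) on the lingual side and was at 0.07 on the buccal side. The undivided mesenchyme held 355, 238 and 242 CPM at the cap stage, above every library of either part.

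Epha7 (chromosome 4, 28813131 to 28967499, plus strand), like Epha3 a receptor with a known part in sorting cell populations, was at 136, 125 and 134 CPM in Cap-L and 47.6, 46.5 and 48.7 CPM in Cap-B (log2 fold change -1.44, SE 0.0502, adjusted p = 1.18e-14). The bell stage values were 96.7, 104 and 103 CPM in Bell-L and 52.4, 54.3 and 51.5 CPM in Bell-B (log2 fold change -0.94, SE 0.0378), and the cultured values 100, 104 and 104 CPM and 40.1, 40.9 and 37.9 CPM (log2 fold change -1.38, SE 0.044). Lingual and buccal libraries were apart throughout. Neither interaction was called for Epha7, at 0.49 (SE 0.0635) with stage and 0.05 (SE 0.0652) with culture. The first passed the limit, at 0.50 to 0.55, without Cap-L replicate 2, Cap-B replicate 1 or 3, Bell-L replicate 2 or 3, or Bell-B replicate 3. It also became a call by RLE normalisation (0.51), by DESeq2 (0.51), without the count filter (0.53) and with all libraries in 1 fit (0.52, adjusted p = 0.02). In the undivided mesenchyme it fell from 320, 276 and 254 CPM at the cap stage to 151, 136 and 103 CPM at the bell stage (log2 fold change -1.13, SE 0.171, adjusted p = 0.00439).

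Epha6 (chromosome 16, 59473846 to 60425894, minus strand) was close to the floor except in the buccal part. It was at 0.144, 0.252 and 0.141 CPM in Cap-L and 7.30, 9.41 and 8.99 CPM in Cap-B, the largest side difference among the members (log2 fold change 5.53, SE 0.212, adjusted p = 5.57e-14). In the cultured parts it was at 0.291, 0.320 and 0.253 CPM against 6.84, 6.09 and 6.42 CPM (log2 fold change 4.48, SE 0.185). At the bell stage Bell-B held only 0.753, 0.427 and 0.631 CPM, and 2 of the 3 Bell-L libraries had 3 counts or fewer. Epha6 fell in the buccal part from cap to bell by 3.82 on the log2 scale (SE 0.163, adjusted p = 3.65e-20). The interaction with stage, -3.08 (SE 0.752), was lost without Bell-L replicate 2, at -2.51 (adjusted p = 0.0632). The undivided cap mesenchyme showed 0.212, 0.199 and 0.310 CPM, at the level of Cap-L.

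Epha4, which binds ephrins of both classes, was higher in Cap-B, at 153, 159 and 160 CPM, than in Cap-L, at 102, 91.9 and 105 CPM (log2 fold change 0.69, SE 0.0525). At the bell stage the order was the opposite, with 78.6, 78.6 and 81.2 CPM in Bell-L and 52.8, 52.7 and 53.4 CPM in Bell-B (log2 fold change -0.59, SE 0.0377). The groups did not overlap at either stage, and the interaction was -1.28 (SE 0.0633, adjusted p = 3.06e-18). Epha4 fell between the stages by 1.57 on the log2 scale in the buccal part (SE 0.0362) and by 1.18 in the undivided mesenchyme (SE 0.114), from 148, 126 and 137 to 54.3, 63.8 and 64.2 CPM. In the lingual part its value of -0.31 was not called. In culture Epha4 fell in the buccal part by 0.64 and its interaction was -0.61. The cultured sides stood at 97.1, 97.4 and 96.9 CPM and at 107, 102 and 101 CPM, a log2 difference of 0.08 (SE 0.039) that was not called.

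Epha2, an EphA receptor known from epithelia and vessels, was lower in Cap-B (log2 fold change -0.60) and in Cap-B+2D (-1.10). It was called toward the buccal side with stage (interaction 0.54, SE 0.0851), with 29.4, 30.8 and 30.7 CPM in Cap-L, 20.7, 18.1 and 20.0 in Cap-B, 29.8, 25.4 and 28.9 in Bell-L and 27.3, 26.8 and 26.6 in Bell-B. The bell stage libraries of the sides overlapped, and without Bell-L replicate 2 the interaction of 0.47 was under the limit. The interaction with culture was -0.50, on the limit, and was lost, at -0.43 to -0.49, when any of 6 single libraries was removed: Cap-L 1, Cap-B 1 or 3, Cap-L+2D 1 or 3, or Cap-B+2D 1. In the undivided mesenchyme Epha2 rose from 8.44, 13.9 and 14.3 to 31.7, 27.3 and 59.6 CPM (log2 fold change 1.68, SE 0.331, adjusted p = 0.0129). The highest value came from the Bell-W library with the high epithelial markers. The call of Epha2 was kept without that library but was lost without the count filter (1.71, adjusted p = 0.0502). Epha1, also known from epithelia, fell in culture in both parts, from 11.7, 10.6 and 10.8 to 7.20, 7.00 and 7.23 CPM in the lingual part (log2 fold change -0.63, SE 0.0825) and by 0.87 in the buccal part. Its interaction with stage was -0.61.

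Of the low EphA genes, Epha5 was higher in the buccal part at the cap stage (log2 fold change 0.91) and the bell stage (0.72), fell by 0.60 from cap to bell in the buccal part, rose by 0.82 in cultured lingual mesenchyme and was at 0.01 (SE 0.0839) between the cultured parts, not called. Its interaction with culture was -0.90. Epha8 was lingual at the cap stage (-2.13, with 3.87 to 4.76 CPM in Cap-L and 0.749 to 1.21 CPM in Cap-B) and after culture (-1.58). Its stage values were -3.33 in the lingual and -1.53 in the buccal part, its culture values -1.20 and -0.65, all called lower, and its interaction with stage was 1.79. The call of -0.65 was lost without Cap-B replicate 1 or 2 or Cap-B+2D replicate 2 or 3, with values from -0.46 to -0.65 (adjusted p = 0.0559 to 0.189). Epha10 was at most 0.957 CPM and was tested in 5 of the 10 comparisons. Its fall of 1.01 with stage in the buccal part was lost without any of the 6 libraries (adjusted p = 0.0512 to 0.189). All 3 Cap-L+2D libraries were at or under the floor for Epha10, so its interaction with culture of 2.00 rested on counts at or under the floor in that group. That call was lost (1.48 to 2.22, adjusted p = 0.0797 to 0.156) without Cap-L 1 or 3, Cap-B 1 or 3, Cap-L+2D 2 or 3, or Cap-B+2D 1 or 3. Of the low genes, Epha6 also gained an interaction with culture without Cap-L 2 (-1.43) or Cap-B 1 (-1.15), against -1.06 with all libraries.

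Promoters are shown for members that kept 1 side in all 3 side comparisons, to set sequence beside their values, other than Ntn1 and Unc5d. They are the 250 bases before the start of the gene in RefSeq's table for GRCm38.p6, 5′ to 3′ on the strand of the gene, taken from the entry listed first, and 35 of the 40 members had an entry. Capitals mark E-boxes, CANNTG on either strand, the letters that basic helix-loop-helix factors bind. Epha6 (chr16:60605532-60605781, minus strand) and Ephb1 (chr9:102354694-102354943, minus strand) were buccal. Epha3 (chr16:63864176-63864425, minus strand) and Epha7 (chr4:28812881-28813130, plus strand) were lingual.
Epha6: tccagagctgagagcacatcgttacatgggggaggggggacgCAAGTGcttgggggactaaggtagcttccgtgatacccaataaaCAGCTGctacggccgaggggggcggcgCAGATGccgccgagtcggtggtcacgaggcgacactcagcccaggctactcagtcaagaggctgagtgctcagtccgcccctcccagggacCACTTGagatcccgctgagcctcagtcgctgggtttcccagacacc
Ephb1: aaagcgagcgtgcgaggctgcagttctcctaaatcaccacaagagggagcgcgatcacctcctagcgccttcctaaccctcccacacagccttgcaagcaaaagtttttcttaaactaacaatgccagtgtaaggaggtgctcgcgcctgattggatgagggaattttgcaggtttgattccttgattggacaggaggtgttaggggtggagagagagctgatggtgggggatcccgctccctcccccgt
Epha3: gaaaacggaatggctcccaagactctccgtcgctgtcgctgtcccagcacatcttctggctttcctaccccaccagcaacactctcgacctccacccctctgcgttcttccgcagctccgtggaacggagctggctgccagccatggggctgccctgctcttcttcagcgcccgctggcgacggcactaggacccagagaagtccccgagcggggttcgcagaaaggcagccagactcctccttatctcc
Epha7: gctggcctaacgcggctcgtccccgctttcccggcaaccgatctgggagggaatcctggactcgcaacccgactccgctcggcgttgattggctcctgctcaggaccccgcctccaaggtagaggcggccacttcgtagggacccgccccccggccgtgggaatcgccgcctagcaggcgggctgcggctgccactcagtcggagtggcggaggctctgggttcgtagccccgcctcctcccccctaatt
Epha6 held 4 E-boxes and the other promoters 0. Of all 27025 promoters of this length 66% held at least 1, and so did 15 of the 35 members with an entry, or 42.9%. The GC box GGGCGG, read on both strands, was found 2 times in Epha6, 1 time in Epha7 and in neither of the others, against 32.9% of all promoters and 71.4% of the members that held it. The homeobox core TAATTA was in none of the 4 and in 4.9% of all promoters. The number of CpG was 15, 10, 16 and 25 in the order shown, beside a median of 6 over all promoters. A match of letters describes the sequence and is not a binding site.

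Among the EphB receptors, which bind mainly the ephrin-B ligands, Ephb1 was called buccal in every side comparison. Ephb3 was called buccal at the cap stage and after culture. At the cap stage, the bell stage and after culture 10.4%, 5.98% and 12.5% of all genes were called buccal. None of the 5 was called lingual, against 7.11%, 6.89% and 12.6% of all genes, and 5 genes are too few to set the family apart by this. Ephb1 (chromosome 9, 101799327 to 102231892, minus strand, GRCm39) was at 13.3, 13.5 and 12.3 CPM in Cap-L and 20.3, 20.2 and 19.8 CPM in Cap-B (log2 fold change 0.65, SE 0.0674, adjusted p = 1.66e-07), and at the bell stage the log2 fold change was 0.58 (SE 0.0759). In culture it rose on both sides, to 23.1, 21.7 and 23.5 CPM in Cap-L+2D (log2 fold change 0.80, SE 0.0674) and to 55.7, 56.5 and 57.5 CPM in Cap-B+2D (log2 fold change 1.46, SE 0.056, adjusted p = 6.17e-22). Within each side comparison the buccal libraries of Ephb1 lay above the lingual ones, and the side difference grew in culture (interaction 0.65, SE 0.0836, adjusted p = 1.12e-07). Part of Ephb1, 2.49% of its exon bases, is shared with the gene model Gm57054, which leaves read pairs there uncounted.

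Ephb3 (chromosome 16, 21023505 to 21042055, plus strand) was at 147, 156 and 153 CPM in Cap-L and 369, 361 and 380 CPM in Cap-B, with no overlap (log2 fold change 1.31, SE 0.0442, adjusted p = 7.14e-15). The excess was smaller at the bell stage, where 149, 139 and 141 CPM in Bell-L stood against 170, 167 and 177 CPM in Bell-B (log2 fold change 0.26, not called, interaction -1.06, SE 0.0557). After culture it was 0.77 (SE 0.044, interaction -0.55). Ephb3 fell in the buccal part with stage by 1.12 and in culture by 0.61, while its values in the lingual part were -0.07 and -0.08. Ephb2 was called once, lower in Bell-W than in Cap-W (log2 fold change -0.69), and Ephb6, a receptor without kinase activity, was called once, higher in Bell-W (0.77). Ephb4, known from venous endothelium, was the most abundant member per length and had log2 fold changes between -0.33 and 0.16 in the 8 pairwise comparisons.

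Of the 5 ephrin-A genes none was called between the sides at the cap stage, where 10.4% of all genes were called buccal and 7.11% lingual. The medians of their side differences were 0.01, -0.03 and -0.19 at the cap stage, the bell stage and after culture. Efna1 was lower in Cap-B+2D than in Cap-L+2D (log2 fold change -0.89, SE 0.0601) and fell in the cultured buccal part by 0.67, with an interaction of -0.70, and was at 15.3, 15.4 and 15.7 CPM in Cap-B+2D against 24.0, 21.9 and 26.2 CPM in Cap-B. It rose in the undivided mesenchyme with stage (0.78), a call lost without Cap-W replicate 2 (adjusted p = 0.0631). Efna4 fell in the cultured buccal part by 0.72. Efna3, of which 14.1% of the exon bases are shared with Gm15998, was higher in Bell-B than in Bell-L (0.55) and in Bell-W than in Cap-W (0.68). The first was at 0.49 without Bell-L replicate 2, and the second lost its call without Cap-W replicate 2 or 3 or Bell-W replicate 2 (adjusted p = 0.0593 to 0.0725).

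Of the ephrin-B genes, Efnb2 was called lingual at the cap stage (7.11% of all genes) and Efnb2 and Efnb1 after culture (12.6%). None was called buccal at the cap stage, the bell stage or after culture, against 10.4%, 5.98% and 12.5% of all genes. Efnb2 (chromosome 8, 8667434 to 8711242, minus strand), known from arterial endothelium and as a ligand of Ephb4, was at 168, 159 and 170 CPM in Cap-L and 107, 106 and 106 CPM in Cap-B (log2 fold change -0.62, SE 0.046, adjusted p = 1.45e-09). After culture it stood at 194, 196 and 190 CPM against 103, 98.5 and 98.7 CPM (log2 fold change -0.96, SE 0.0379), and the groups did not overlap. The endothelial markers were called in 0 of 8 cases at the cap stage and 7 of 8 lower in the buccal part after culture. The bell stage difference of Efnb2 was -0.30 and not called. Efnb1 was lower in Cap-B+2D than in Cap-L+2D by -0.51 on the log2 scale, with 124, 123 and 123 CPM against 86.7, 84.6 and 90.7 CPM. That value moved to -0.49, under the limit, without Cap-B+2D replicate 1 or 2. Efnb3 fell with stage in the lingual part from 102, 109 and 108 to 71.1, 69.6 and 70.9 CPM (log2 fold change -0.58, SE 0.0444, adjusted p = 1.03e-11) and in the cultured buccal part by 0.83. Its interaction with culture, -0.51, was under the limit without Cap-L replicate 1, Cap-L+2D replicate 3 or Cap-B+2D replicate 1, with values from -0.48 to -0.50.

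Slit2 and Slit3 were the main Slit genes and were higher in the buccal part at the cap stage. Slit2 (chromosome 5, 48140480 to 48465075, plus strand) was at 156, 141 and 161 CPM in Cap-L and 317, 326 and 332 CPM in Cap-B, with no overlap (log2 fold change 1.11, SE 0.0526, adjusted p = 1.35e-12). It fell in the buccal part to 193, 193 and 189 CPM at the bell stage (log2 fold change -0.77, SE 0.0316), while the lingual part held 148, 150 and 146 CPM, so that the interaction was -0.75 (SE 0.0603). In culture the lingual part rose to 225, 218 and 217 CPM (log2 fold change 0.52, SE 0.0467) and the interaction was -0.69. The rise was at 0.46 without Cap-L replicate 2 and at 0.49 without Cap-L+2D replicate 1. The side differences at the bell stage (0.37) and after culture (0.43) were not called.

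Slit3 (chromosome 11, 35012051 to 35599334, plus strand) rose in culture on both sides, from 109, 101 and 121 to 237, 226 and 247 CPM in the lingual part (log2 fold change 1.09, SE 0.0524, adjusted p = 1.1e-16) and from 158, 165 and 168 to 316, 347 and 356 CPM in the buccal part (log2 fold change 1.02, SE 0.04). The buccal libraries stayed above the lingual ones, by 0.60 at the cap stage and 0.51 after culture. The latter fell to 0.48 without Cap-L+2D replicate 2 or Cap-B+2D replicate 3, and to 0.50, under the limit, without Cap-B+2D replicate 2. Neither interaction was called for Slit3 (-0.23 and -0.09). With stage it rose in the lingual part by 0.59. Slit1, known from the nervous system, was at 0.316 to 2.44 CPM outside Bell-W and rose with stage in the lingual (2.11) and buccal part (1.68) and in culture (0.77 and 0.81). The culture calls were lost without Cap-L replicate 3 (0.63, adjusted p = 0.0643) and without Cap-B replicate 1 (0.58, adjusted p = 0.0817). Bell-W held 1.11, 1.32 and 14.0 CPM of Slit1, the last in the library with the high neuronal markers, and its rise of 2.57 was not called (adjusted p = 0.125).

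Robo1 and Robo2, the receptors of the Slits in most tissues, had unlike patterns. Robo1 was not called in any comparison, with log2 fold changes between sides of -0.31, -0.33 and -0.45. Robo2 was at 114, 102 and 114 CPM in Cap-L and 193, 203 and 201 CPM in Cap-B (log2 fold change 0.88, SE 0.0523), and rose in the lingual part to 165, 169 and 164 CPM at the bell stage (log2 fold change 0.61, SE 0.0491), near the 169, 180 and 172 CPM of Bell-B. Its side difference there was 0.07 and its interactions were -0.82 with stage and -0.55 with culture. The latter was at -0.49 without Cap-L replicate 2. Robo2 thus stood with Slit2, Ephb3, Unc5c and Dcc among the genes that were buccal at the cap stage and were called toward the lingual side in both interactions.

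Robo4, a receptor known mainly from endothelium, rose with stage from 8.23, 9.50 and 9.74 to 31.1, 28.1 and 25.3 CPM in the undivided mesenchyme (log2 fold change 1.62, SE 0.143, adjusted p = 0.000652) and from 24.2, 23.7 and 23.5 to 37.6, 35.1 and 36.9 CPM in the lingual part (log2 fold change 0.63, SE 0.0563). In the cultured buccal part it fell from 26.1, 25.9 and 25.1 to 9.32, 11.2 and 11.2 CPM (log2 fold change -1.32, SE 0.0703), and it was lower there than in the cultured lingual part (-1.04, interaction -1.18). All 8 endothelial markers were called higher in Bell-W than in Cap-W and all 8 lower in Cap-B+2D than in Cap-B, with medians of 1.15 and -1.30. In Bell-L over Cap-L only Pecam1 (0.51) and Cldn5 (0.59) of them were called higher. The others were at 0.24 to 0.30 there, and their part in the values of Robo4 was not tested. Robo3 (2.22 to 7.42 CPM in Cap-L, Cap-B and their cultures) was lower in Cap-B+2D, at 2.76, 2.22 and 2.49 CPM, than in Cap-L+2D, at 5.2, 6.47 and 7.42 CPM (log2 fold change -1.37, SE 0.132, adjusted p = 1.08e-09). It was higher in Bell-B than in Bell-L (0.64) and fell with stage in the lingual part from 4.46, 3.56 and 4.55 to 2.94, 2.66 and 1.92 CPM (log2 fold change -0.73, SE 0.162). It rose in the cultured lingual part (0.63) and in the undivided mesenchyme (1.51), and its interactions were 0.96 with stage and -1.05 with culture. Of these calls, that at the bell stage was lost without Bell-L replicate 3 (0.48), that in lingual culture without Cap-L+2D replicate 3 (0.49), and that in the undivided mesenchyme without Cap-W replicate 3 or any Bell-W library (adjusted p = 0.0646 to 0.143).

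Ntn1, the gene of netrin-1 (chromosome 11, 68100190 to 68291649, minus strand), was called higher in each of the 8 pairwise comparisons. In Cap-L it was at 9.11, 8.47 and 10.1 CPM and in Cap-B at 63.4, 63.2 and 65.3 CPM, a 7.11-fold difference (log2 fold change 2.83, SE 0.0645, adjusted p = 2.43e-17). Ntn1 stood later, at E15, at 34.9, 34.5 and 33.0 CPM in the lingual and 104, 100 and 104 CPM in the buccal part (log2 fold change 1.59, SE 0.0395). After culture it was at 53.6, 52.7 and 54.1 CPM and at 160, 163 and 167 CPM (log2 fold change 1.60, SE 0.0411). Buccal libraries were above lingual libraries without exception. The lingual part rose more than the buccal part, by 1.91 (SE 0.0658) against 0.68 (SE 0.0374) with stage and by 2.54 (SE 0.0635) against 1.32 (SE 0.0364) in culture, and the interactions were -1.25 (SE 0.0753, adjusted p = 8.7e-16) and -1.23 (SE 0.0747, adjusted p = 3.35e-15).

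The undivided mesenchyme held 6.27, 9.56 and 11.7 CPM of Ntn1 at the cap stage, at the level of Cap-L, and 22.9, 17.8 and 56.4 CPM at the bell stage (log2 fold change 1.81, SE 0.446, adjusted p = 0.0313). The highest value came from the library with the high epithelial markers. This call was lost without any of the 3 Cap-W libraries (adjusted p = 0.0644 to 0.0887) and when genes of low counts were kept (adjusted p = 0.191), but not without that Bell-W library. With all libraries in 1 fit, the call of Ntn1 in Bell-B over Cap-B was lost as well (0.69, adjusted p = 0.057). The 8 muscle markers tested were called higher in the buccal part in the same 3 side comparisons as Ntn1. In the undivided mesenchyme the muscle markers summed to 12.1 to 17.2 CPM in Cap-W and 6.9 to 15.9 CPM in Bell-W. Their part in the values of Ntn1 was not tested.

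Ntng1, the gene of netrin-G1 (chromosome 3, 109687356 to 110051327, minus strand), turned its side in culture. It was at 20.6, 18.9 and 19.6 CPM in Cap-L and 31.5, 31.6 and 31.6 CPM in Cap-B (log2 fold change 0.71, SE 0.0591), and at 34.4, 34.8 and 34.9 CPM in Cap-L+2D and 15.9, 14.4 and 15.7 CPM in Cap-B+2D (log2 fold change -1.18, SE 0.0575). The groups did not overlap in either comparison. The lingual part rose in culture by 0.81 (SE 0.0567), the buccal part fell by 1.07 (SE 0.0547), and the interaction was -1.89 (SE 0.0815, adjusted p = 3.32e-19), the lowest of the interactions with culture. With stage it rose in the lingual part to 33.1, 34.2 and 32.3 CPM (log2 fold change 0.77, SE 0.0571) and in the undivided mesenchyme (1.11). Ntng2, of which 14% of the exon bases are shared with 6530402F18Rik, had the same turn without a call at the cap stage (0.33), with -1.14 after culture and an interaction of -1.47. It rose in the lingual part with stage (0.75) and in culture (1.03), and its interaction with stage was -0.63. That last call was lost by DESeq2 (-0.62, adjusted p = 0.0844) and with all libraries in 1 fit (-0.61, adjusted p = 0.248).

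Ntn3 and Ntn4 were weaker in their differences. Ntn3 fell in the cultured buccal part by 1.02 and was lower there than in the cultured lingual part (-0.59, interaction -0.59), and shares 4.46% of its exon bases with neighbouring genes. Ntn4, the gene of a basement membrane netrin, rose with stage in the buccal part from 2.93, 2.01 and 3.11 to 4.68, 6.01 and 4.38 CPM (log2 fold change 0.89, SE 0.143, adjusted p = 2.97e-06), where it was higher than the 2.44, 2.69 and 3.08 CPM of Bell-L (log2 fold change 0.86, SE 0.133). It rose in the cultured buccal part by 0.89. Its interactions were 0.93 with stage and 0.55 with culture, and the latter was lost without Cap-L replicate 1, Cap-B replicate 2, Cap-L+2D replicate 3 or Cap-B+2D replicate 1 (0.38 to 0.52, adjusted p = 0.0501 to 0.137).

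**Figure D4:**
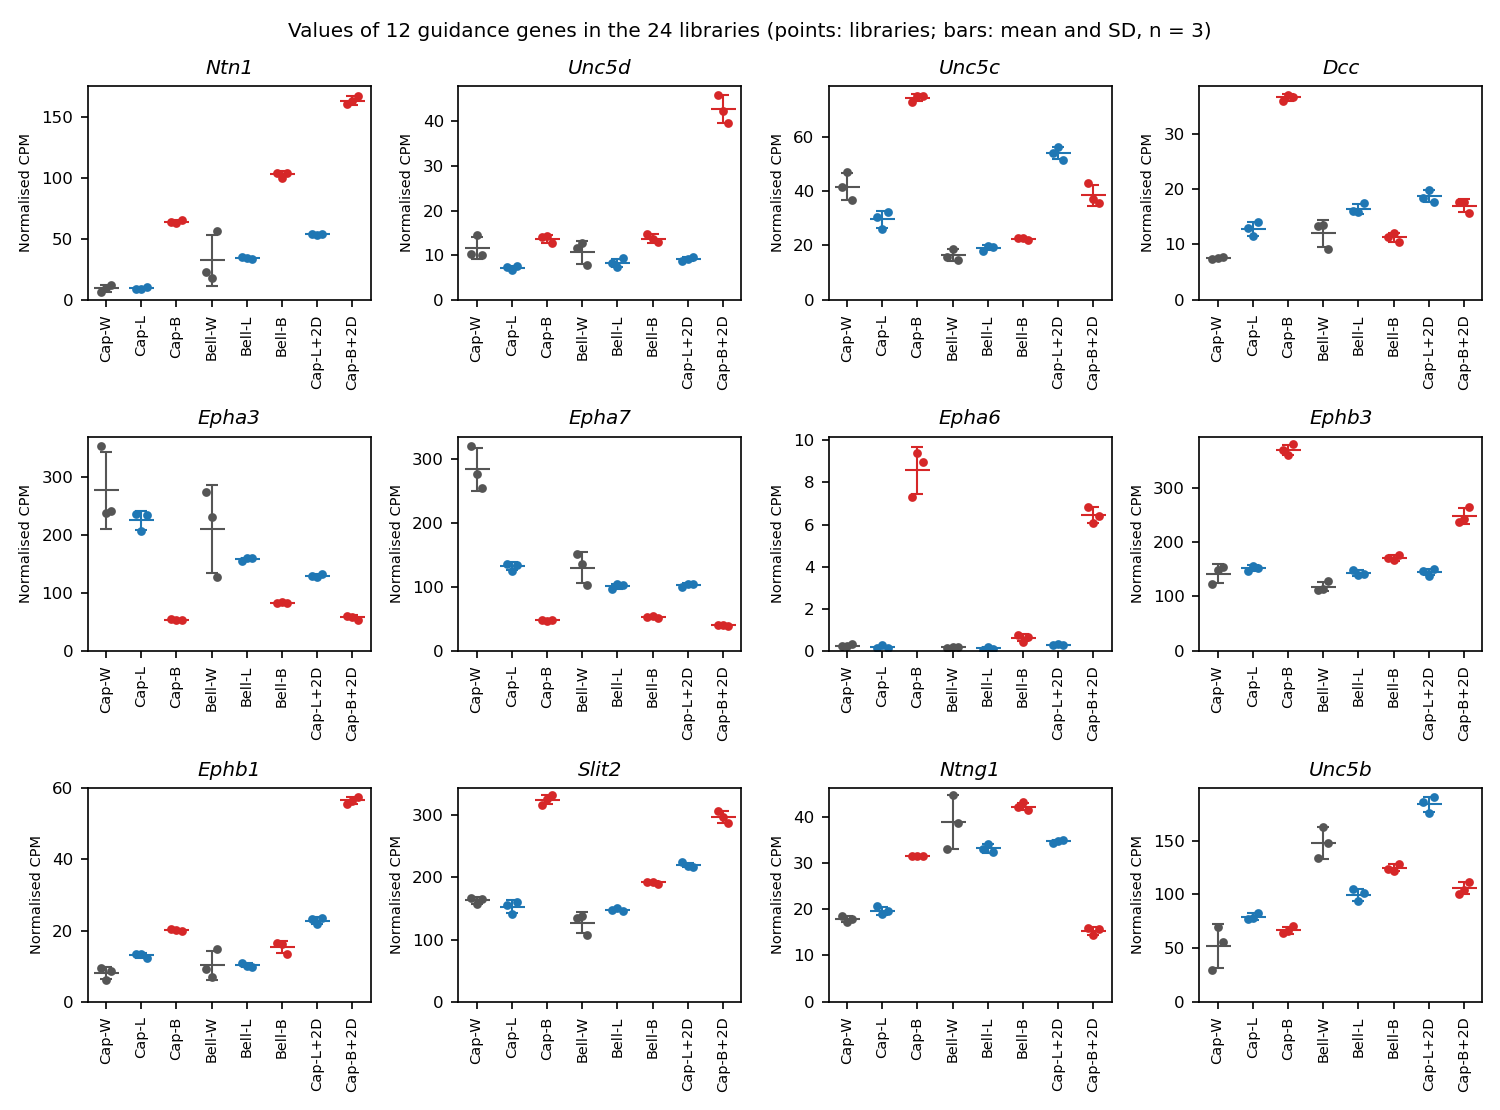
Normalised CPM of 12 of the genes in the 24 libraries (points), with the mean and SD of each group (n = 3), in grey for undivided, blue for lingual and red for buccal mesenchyme. Ntn1 was higher in buccal than in lingual libraries throughout, Unc5d was raised in Cap-B+2D, Dcc and Unc5c peaked in Cap-B, and Epha3 and Epha7 were lowest in the buccal groups.

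Unc5c and Dcc, a repulsive and an attractive receptor of netrin-1, were both highest in Cap-B. Unc5c (chromosome 3, 141170977 to 141540685, plus strand) was at 30.5, 25.9 and 32.1 CPM in Cap-L and 72.6, 74.9 and 74.9 CPM in Cap-B (log2 fold change 1.36, SE 0.0661, adjusted p = 3e-12). It fell with stage to 18.0, 19.9 and 19.4 CPM in the lingual part (log2 fold change -0.60, SE 0.0719) and to 22.5, 22.8 and 22.1 CPM in the buccal part (log2 fold change -1.73, SE 0.0524, adjusted p = 2.22e-24). In the undivided mesenchyme it fell from 41.3, 46.8 and 36.8 to 15.6, 18.7 and 14.5 CPM (log2 fold change -1.36, SE 0.142, adjusted p = 0.00109). In culture the lingual part rose to 54.1, 56.1 and 51.5 CPM (log2 fold change 0.87, SE 0.0649) and the buccal part fell to 42.9, 36.9 and 35.4 CPM (log2 fold change -0.98, SE 0.0483). The interactions were -1.14 (SE 0.0887) with stage and -1.86 (SE 0.0902) with culture. The difference between the cultured sides, -0.49, was not called, and it passed the limit without Cap-L+2D replicate 3 (-0.53) or Cap-B+2D replicate 1 (-0.57).

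Dcc (on chromosome 18) was at 12.9, 11.5 and 14.1 CPM in Cap-L and 36.0, 37.1 and 36.7 CPM in Cap-B (log2 fold change 1.54, SE 0.0715, adjusted p = 9.87e-13). It fell in the buccal part to 11.4, 12.0 and 10.4 CPM at the bell stage (log2 fold change -1.71, SE 0.0622) and to 17.7, 17.6 and 15.6 CPM in culture (log2 fold change -1.14, SE 0.0575). The lingual part held 16.0, 15.8 and 17.5 CPM at the bell stage and 18.4, 19.9 and 17.7 CPM after culture. The cultured lingual libraries lay above the buccal ones by a narrow margin, and the log2 difference of -0.14 was not called (adjusted p = 0.0779). Bell stage lingual libraries were the higher ones (log2 fold change -0.55, SE 0.0708), which moved to -0.49, under the limit, without Bell-B replicate 3. The interactions were -2.10 (SE 0.102, adjusted p = 1.77e-18) with stage and -1.69 (SE 0.0992) with culture. The rise of 0.54 in lingual culture was at 0.45 without Cap-L replicate 2 and at 0.48 without Cap-L+2D replicate 2. In the undivided mesenchyme Dcc was at 7.43, 7.55 and 7.70 CPM at the cap stage, under every library of the parts.

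Unc5d (chromosome 8, 29136745 to 29709664, minus strand) was the netrin receptor gene that stayed buccal. It was at 7.27, 6.76 and 7.55 CPM in Cap-L and 14.1, 14.3 and 12.7 CPM in Cap-B (log2 fold change 0.96, SE 0.0876), and at 8.12, 7.39 and 9.25 CPM in Bell-L and 14.7, 13.6 and 12.9 CPM in Bell-B (log2 fold change 0.73, SE 0.0807). In the cultured parts it was at 8.62, 9.24 and 9.56 CPM against 46.0, 42.4 and 39.7 CPM (log2 fold change 2.21, SE 0.0664, adjusted p = 1.35e-20). No buccal library overlapped the lingual ones. The rise in buccal culture was 1.61 (SE 0.0636), the lingual value of 0.35 was not called, and the interaction was 1.25 (SE 0.112, adjusted p = 5.04e-11). The muscle markers were highest in the same Cap-B+2D libraries.

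Unc5b, known from endothelium as well, rose with stage in the buccal part from 64.2, 65.9 and 70.4 to 124, 122 and 128 CPM (log2 fold change 0.89, SE 0.0424, adjusted p = 6.89e-19) and in the undivided mesenchyme (1.51). In lingual culture it rose from 77.3, 77.6 and 82.9 to 186, 176 and 191 CPM (log2 fold change 1.21, SE 0.048, adjusted p = 1.37e-18) and in buccal culture by 0.62, so that it was lower in Cap-B+2D than in Cap-L+2D (-0.81). Bell-L held 105, 93.9 and 101 CPM, and the interactions were 0.53 with stage and -0.60 with culture. The former was at 0.49 without Bell-L replicate 2. Unc5a was low, at 0.248 to 3.15 CPM, and turned from lingual in the cap stage parts (-1.96) to buccal at the bell stage (0.96) and after culture (1.04). With all libraries in 1 fit the bell stage value was not a call (0.96, adjusted p = 0.132). Its values were 1.76, 1.49 and 1.83 CPM in Cap-L, 0.586, 0.334 and 0.355 in Cap-B, 1.46, 1.28 and 1.69 in Cap-L+2D and 3.15, 2.95 and 3.13 in Cap-B+2D. The buccal part rose by 2.19 with stage and 2.83 in culture, and the interactions were 2.92 and 3.00, the highest of the members. Its fall in the lingual part with stage (-0.74) was at -0.53 without Bell-L replicate 3 (adjusted p = 0.0593). Neo1, the gene of neogenin and the most abundant of these receptors per length, was called once, at -0.50 between the cultured sides, on the limit. It was at -0.49 to -0.50 and not called without Cap-L+2D replicate 2 or 3 or Cap-B+2D replicate 2 or 3.

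**Figure D5:**
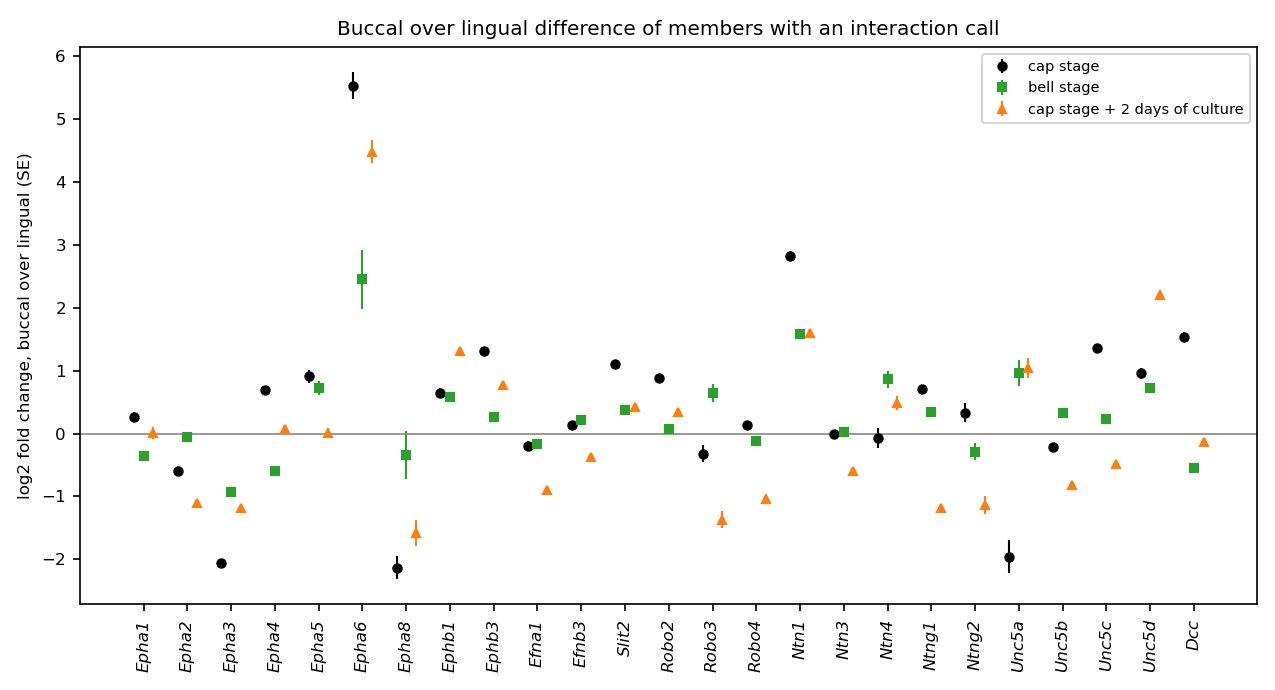
Log2 fold change, buccal over lingual (SE as bars), at the cap stage (circles), the bell stage (squares) and after 2 days of culture of the cap stage parts (triangles) for the 25 members other than Epha10 with an interaction call. Values above 0 are buccal. Ntng1 moved from above 0 at the cap stage to below 0 after culture, Unc5a moved the opposite way, and Ntn1 and Epha6 stayed above 0.

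Genes that act with these families were followed in a list of 45 partners, such as other ligands, coreceptors and the proteins that relay their signals to the cytoskeleton. At the cap stage 12 of the 44 tested were called buccal (10.4% of all genes) and 4 lingual (7.11%), at the bell stage 1 and 2 of 45 (5.98% and 6.89% of all genes), and after culture 5 and 5 of 44 (12.5% and 12.6%). The largest changes at the cap stage were those of Lrrc4c, a membrane ligand of netrin-G1 (log2 fold change 1.76, SE 0.186), Draxin, a secreted ligand of Dcc (1.23, SE 0.103), and Grip2, a scaffold protein that binds ephrin-B proteins (1.01, SE 0.0914). At the bell stage they were Dscam, a netrin receptor (1.08, SE 0.41), Ntn5 (-0.98, SE 0.155) and Lrrc4c (-0.79, SE 0.234), of which Dscam and Lrrc4c were low. After culture they were Grip2 (1.5, SE 0.089), Ntn5 (-1.46, SE 0.146) and Rgma, a ligand of neogenin (1.38, SE 0.0551). In culture 12 of 44 partners rose (19.6% of all genes) and none fell (15.9%) in the lingual part, and 12 of 45 rose (17.9%) and 1 fell (16.6%) in the buccal part. With stage 4 rose and 1 fell on the lingual side (14.2% and 5.79% of all genes), 4 rose and 5 fell on the buccal side (12% and 6.72%), and 6 rose and 6 fell in the undivided mesenchyme (10.3% and 4.24%). Of the interactions, 4 partners were called toward the buccal and 7 toward the lingual side with stage (5.27% and 8.87% of all genes), and 3 and 7 with culture (7.16% and 10.2%).

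The undivided mesenchyme did not always lie between its parts. At the cap stage all 3 Cap-W libraries were above all 6 libraries of the parts for 4 of the 40 members (10%, against 11.1% of the 17951 genes with a mean of at least 1 CPM), namely Epha3, Epha7, Ephb2 and Slit1. They were below them for 13 (32.5%, against 21.1%), among them Epha2, Ephb1, Ephb4, Efnb2, Robo2, Robo4, Ntng1 and Dcc. At the bell stage 2 members, Ephb6 and Unc5b, were above (5%, against 7.87%), and 6 were below (15%, against 12.4%). Endothelial markers summed to 201 to 214 CPM in Cap-W, less than in either part, and skeletal muscle markers to 12.1 to 17.2 CPM, as in Cap-L.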

How the data were processed

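Bulk RNA-seq counts of 24 libraries in 8 groups of 3 were analysed, with groups and replicate numbers taken from the labels. The authors deposited raw counts of read pairs per gene, without normalization. Per the file headers these were made by featureCounts v2.0.0 in paired mode over the exons of Ensembl release 107 of GRCm39, with no option for strand, multi-mapping or overlapping reads, so that read pairs from bases shared by genes on either strand were left out or cannot be told apart. The submitters' processing notes name FastQC 0.12.1, Trimmomatic 0.39, Bowtie 1.2.3, Subread 2.0.3 and DESeq2 1.40.2, while the methods name another aligner, and the library kit is named differently in the labels and the methods. Symbols came from Ensembl release 116.

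Tests were run in R 4.3.3 with edgeR 4.0.16: TMM normalization, filterByExpr, a robust quasi-likelihood fit and Benjamini-Hochberg adjustment over all genes tested. Side comparisons and the undivided stages were fitted on their own 6 libraries, stage and culture comparisons on the 9 libraries of a side and interactions on 12 libraries. The call limits were 0.05 for the adjusted p and 0.5 for the size of the log2 fold change or interaction. CPM shown were normalised over all 24 libraries, and 3 counts were set as the floor. Counts per library had a median of 27677163. Library pairs of a group differed by more than sampling noise, with a chi-square per gene of 1.32 to 9.84 in the parts and 7.89 to 161 in the undivided groups, so that none was counted as a duplicate.

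The members, gene lists and marker lists were chosen with earlier results of these data known. Values in every library are given for members called with an average log2 CPM of at least 2, up to the 3 largest changes in each direction per comparison, and for other members where a call turns on them. Further called members are named with their log2 fold change, and of the 45 partner genes the 3 largest called changes in each side comparison. Alternatives were size factors by RLE, the tool DESeq2 1.42.0, dropping the count filter or the fold limit, fitting all libraries together, a replicate block, and removal of single libraries. The fits were tested on simulated counts. Figures were drawn with matplotlib 3.10.9.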

Additional observations from a re-analysis of the deposited data

Results flagged for a closer look

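The buccal over lingual difference itself differed between the stages, by edgeR's interaction test over 12 libraries, for 17 members. On the log2 scale, as the bell stage difference minus that at the cap stage, it moved toward the buccal side for Epha2 (0.54), Epha3 (1.11), Epha8 (1.79), Robo3 (0.96), Ntn4 (0.93), Unc5a (2.92) and Unc5b (0.53). It moved toward the lingual side for Epha1 (-0.61), Epha4 (-1.28), Epha6 (-3.08), Ephb3 (-1.06), Slit2 (-0.75), Robo2 (-0.82), Ntn1 (-1.25), Ntng2 (-0.63), Unc5c (-1.14) and Dcc (-2.10). With all libraries in 1 fit the values of Epha1, Epha2, Ntn4, Ntng2 and Unc5b were no longer calls, and by DESeq2 that of Ntng2.

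Between the cultured and the freshly isolated cap stage parts the difference changed for 23 members. It moved toward the buccal side for Epha3 (0.86), Epha10 (2.00), Ephb1 (0.65), Ntn4 (0.55), Unc5a (3.00) and Unc5d (1.25). It moved toward the lingual side for Epha2 (-0.50), Epha4 (-0.61), Epha5 (-0.90), Ephb3 (-0.55), Efna1 (-0.70), Efnb3 (-0.51), Slit2 (-0.69), Robo2 (-0.55), Robo3 (-1.05), Robo4 (-1.18), Ntn1 (-1.23), Ntn3 (-0.59), Ntng1 (-1.89), Ntng2 (-1.47), Unc5b (-0.60), Unc5c (-1.86) and Dcc (-1.69). Both sets of values use the same 6 cap stage libraries. With 3 libraries in a group, single libraries were not tested as outliers.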

How the results depend on the processing

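Without the fold limit, which raised the share of all genes called as well, 29 members were called in Cap-B over Cap-L, 27 in Bell-B over Bell-L, 33 in Cap-B+2D over Cap-L+2D, 32 in Bell-L over Cap-L, 33 in Bell-B over Cap-B, 30 in Cap-L+2D over Cap-L, 35 in Cap-B+2D over Cap-B and 26 in the interaction of side with stage. Every other alternative kept the 10 counts within 1.5 times, and no named value changed its sign. In the same order, leaving out 1 library at a time gave 19, 12 to 13, 19 to 22, 12 to 13, 14 to 15, 13 to 15, 19 to 20 and 15 to 19 calls, with 10 to 15 in Bell-W over Cap-W and 19 to 23 in the interaction of side with culture. The undivided comparison gave 17 calls by DESeq2 and 19 with all libraries in 1 fit. Both gained Efna2, Robo2 (main value 0.85, adjusted p = 0.0591), Ntng2 (1.43, 0.0641) and Dcc (0.66, 0.0546). Slit1 and Ntn4 were gained in the 1 fit only. Epha10, not tested between the cultured parts or in lingual culture, was gained in both by DESeq2 (2.89 and -2.48), without the count filter and in 1 fit. Its Cap-L+2D libraries were all at or under the floor.

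Single calls were lost as follows, and the cause was not tested. With all libraries in 1 fit they were Ntn4 (adjusted p = 0.0547) and Unc5a (0.132) in Bell-B over Bell-L, Efnb1 (log2 fold change -0.50) and Neo1 (-0.49) in Cap-B+2D over Cap-L+2D, and Unc5a (adjusted p = 0.177) in Bell-L over Cap-L. In Bell-B over Cap-B they were Epha10 (adjusted p = 0.183), Slit1 (0.11) and Ntn1 (0.057), in Cap-L+2D over Cap-L Slit1 (0.442), and in Cap-B+2D over Cap-B Epha8 (0.17) and Slit1 (0.404). Of the interactions with stage, Epha1 (adjusted p = 0.232), Epha2 (0.233), Ntn4 (0.17), Ntng2 (0.248) and Unc5b (0.118) were lost in that fit. Of those with culture, Epha2 (adjusted p = 0.307), Epha10 (0.121), Robo2 (0.129), Ntn4 (0.421) and Unc5b (0.0951) were lost, and Efnb3 moved under the fold limit (-0.48). DESeq2 lost Slit1 in lingual culture (adjusted p = 0.057), Epha8 in buccal culture (0.177), Epha10 in Bell-B over Cap-B (0.194), the stage interaction of Ntng2 (0.0844) and the culture interactions of Epha10 (0.128), Ntn4 (0.0833) and, on the fold limit, Epha2. Without the count filter Epha2 (adjusted p = 0.0502) and Ntn1 (0.191) were lost in Bell-W over Cap-W, Epha10 in Bell-B over Cap-B (0.0942) and in its culture interaction (0.0762), and Epha8 in buccal culture (0.0689). Neo1 between the cultured sides and the culture interaction of Epha2 lay under the fold limit without the count filter and by RLE.

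No comparison had a correlation over 0.1 for every replicate number, the limit set for pairing. The values ran from -0.126 in Bell-L over Cap-L to 0.133 in Cap-B+2D over Cap-L+2D. In Bell-W over Cap-W they were 0.0631, 0.101 and 0.0877. Whether libraries of the same number shared a source was not tested. With the replicate block 19, 13, 21, 12, 14, 15, 20 and 17 members were called in the order above, 15 in Bell-W over Cap-W and 21 in the interaction of side with culture. With the block Epha10 was lost in Bell-B over Cap-B (adjusted p = 0.0511) and in its culture interaction (0.0528), and Epha2 moved under the fold limit in its culture interaction (-0.49). Epha10 was at or under the floor of 3 counts in 4 libraries and Epha6 in 2, and the spread of the undivided libraries limited Bell-W over Cap-W.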
